A study of Mus musculus with 46 samples.

Results

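The 10 mouse genes described here act in antigen presentation to CD4+ T cells: Cd74, H2-Aa, H2-Ab1, H2-Eb1, H2-DMa, H2-DMb1, Ciita, Cd40, Cd80 and Cd86. They were taken by gene symbol from 21231 genes listed in any of 3 expression tables. All 10 were listed for both experiments on sorted brain myeloid cells, and 9 were listed for subventricular zone (SVZ) tissue, where Cd80 was not among the listed genes. The study asked how myeloid cells return to the brain after the CSF1R inhibitor PLX3397, given in chow at 600 ppm, is withdrawn, and how the returned cells answer the bacterial product lipopolysaccharide (LPS).

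All 46 libraries came from male C57BL/6 mice with no transgene. The SVZ experiment held micro-dissected tissue from untreated controls, from mice given PLX3397 for 14 days, and from mice given PLX3397 for 14 days and then control chow for 5 days (n = 5 each). The age of these mice is not given beside the experiment, and the study's methods give 1.5 months where nothing else is said. Mice of both sorted experiments are given as 2-month-old. For the second this is the age at treatment and not at collection. For the first it is not said whether the age is that at treatment or at collection. The first held CD11b+CD45int cells from brain hemispheres. Its 2 origins were control microglia and white matter (WM) repopulating cells, the latter from mice given PLX3397 for 14 days and control chow for 28 days. Each origin was collected at 0 hr, 6 hr and 24 hr after intraperitoneal LPS at 0.33 mg/kg, with 0 hr standing for mice without LPS (n = 3, 5 and 4 for control microglia, and n = 4 at each time for WM repopulating cells). The second sorted experiment held control cells (n = 4) and cells after GLOBAL repopulation, in which PLX3397 was given for 7 days and withdrawn for 28 days (n = 3). The 3 tables were normalized separately, so levels were compared within a table. The sort gate takes cells by 2 surface proteins and can admit other myeloid cells at the same staining.

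MHC class II molecules are pairs of an alpha and a beta chain that carry peptides from engulfed or membrane proteins to the cell surface. The chains are assembled with the invariant chain, the product of Cd74, which blocks the peptide groove until proteases of the endosome remove it, and the DM heterodimer then exchanges the last fragment for a peptide. Ciita encodes the transactivator that switches on these genes in dendritic cells, B cells and macrophages. Recognition by a T cell also draws on costimulation: Cd80 and Cd86 are the ligands of CD28 and CTLA-4, and CD40 receives the CD40 ligand signal from the T cell. Resting microglia are known for low class II, and border-associated macrophages and dendritic cells of the brain for high class II. C57BL/6 mice carry a non-functional H2-Ea, so that the product of H2-Eb1 lacks its partner chain.

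Class II genes share a compact promoter module, with an X box bound by RFX proteins and a Y box bound by NF-Y, through which CIITA acts. The RefSeq promoter windows (GRCm38.p6, 250 bases before and 50 after each start) held 5 of the 10 members: H2-Aa, H2-Eb1, H2-DMb1, H2-DMa and Cd80. The stretches below are the 130 bases before the start of a class II alpha chain, a class II beta chain and a costimulatory ligand, shown so that the motifs can be seen beside a window without them. They lie at chr17:34287824-34287953 (minus strand, H2-Aa), chr17:34305737-34305866 (plus strand, H2-Eb1) and chr16:38458803-38458932 (plus strand, Cd80). Capitals mark the 2 motifs searched on both strands, AACNGATG, a part of the X box, and the core of the Y box, GATTGG, which reads as CCAATC where it lies on the other strand.
H2-Aa: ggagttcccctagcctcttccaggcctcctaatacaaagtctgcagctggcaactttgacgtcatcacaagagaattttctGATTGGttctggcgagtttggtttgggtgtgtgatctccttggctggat
H2-Eb1: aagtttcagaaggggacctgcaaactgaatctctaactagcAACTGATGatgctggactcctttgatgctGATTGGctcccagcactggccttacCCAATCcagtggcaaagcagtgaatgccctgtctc
Cd80: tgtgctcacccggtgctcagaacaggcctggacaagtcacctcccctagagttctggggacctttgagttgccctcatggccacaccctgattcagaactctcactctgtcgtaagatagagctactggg
The GATTGG motif began 49 bases before the start in H2-Aa, 60 in H2-Eb1 and 62 in H2-DMb1. H2-Eb1 and H2-DMb1 also held AACNGATG, at 89 and 92 bases before the start. Of 32851 promoter windows of the same length, 16.1% held GATTGG, 2.32% held AACNGATG and 0.335% held both. Neither motif was found in the Cd80 window. H2-DMa had 2 windows, and 1 of them held GATTGG, 199 bases before its start. A match describes the letters of a window and not the binding of a factor, and for Cd80, H2-DMa and H2-DMb1 the gene in the GENCODE annotation starts upstream of the RefSeq start used here, so that the Cd80 and H2-DMa windows lie inside the gene and that of H2-DMb1 lies partly inside it.

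The class II genes lie together on chromosome 17 (GRCm38, GENCODE vM21): H2-Ab1 at chr17:34257689-34269419, H2-Aa at chr17:34282744-34287823, H2-Eb1 at chr17:34305867-34316674, H2-DMb1 at chr17:34153072-34160230 and H2-DMa at chr17:34119541-34139101. Ciita (chr16:10480059-10528418), Cd80 (chr16:38455561-38496335) and Cd86 (chr16:36603869-36666081) are on chromosome 16, and Cd40 (chr2:165055627-165072948) is on chromosome 2. H2-DMa overlaps Brd2 (chr17:34112023-34122634), a transcriptional regulator on the opposite strand, H2-Eb1 overlaps the antisense gene Gm20513, and Ciita overlaps Dexi. These are overlaps of whole gene spans, and exons were not compared. Reads of such neighbours can be told apart by strand only if the libraries kept strand and the counting used it. The study's methods name Smart-seq2 and a Nextera kit, and the labels describe another protocol. The counting setting is not given in the sources used here.

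Values are fragments per kilobase of transcript and sequencing depth (FPKM), as deposited. For 94.9% to 99.8% of the low genes examined per table, the values were whole multiples of what 1 read is worth, which gave relative depth. The absolute scale was the commonest value under annotated gene lengths, at which 11.8% to 14.1% of the genes used fell. On that scale the depth was 4.57 to 10.6 M counted reads per SVZ library. It was 5.24 to 10.4 M per library of the WM experiment and 4.41 to 6.79 M per library of the GLOBAL experiment. In sorted cells the summed level of 8 microglial markers was 18616 to 21420.3 FPKM in control microglia at 0 hr. Markers of other cells were also present there: 4 neutrophil markers summed to 1329 to 6118 FPKM, 4 monocyte markers to 100.5 to 324 FPKM, and 8 dendritic cell markers to 23.7 to 47.3 FPKM. A gene counts as changed here where limma's moderated test on log2(FPKM + 1), fitted across all genes of a table that reached 1 FPKM in at least 3 libraries, gave a Benjamini-Hochberg adjusted p under 0.05. Fold changes are on that log2(FPKM + 1) scale, which understates the change of low genes. The study's methods give n as mice per group, and the labels name no single animal. The LPS comparisons of 1 origin share their 0 hr libraries, and the SVZ comparisons share groups as well.

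Libraries that stood apart are named before the results. Control microglia at 6 hr, replicate 2, had a dendritic cell marker sum of 621 FPKM against 8.48 to 35.4 in the other 4 libraries of its group. Most of that sum was its Ccr7, the receptor of migrating dendritic cells, at 598 FPKM. Control microglia at 0 hr, replicate 1, had a sum of 138 FPKM over 6 markers of border-associated macrophages, against 47.8 and 63.1 in the other 2. Both were kept. Values without both, an alternative chosen after the data were seen, are given beside several results below, and the calls at 6 hr in control microglia stood at -2.46 for H2-Eb1, -2.01 for H2-Aa, -1.82 for H2-Ab1, -1.14 for H2-DMa, -1.34 for H2-DMb1 and 0.90 for Cd86, with adjusted p of at most 0.0078. SVZ control replicate 1 held the highest value of its group for 5 members.

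In unstimulated control microglia the mean levels per length ran in the order Cd74, H2-Ab1, H2-DMa, H2-Aa, H2-Eb1, Cd86 and H2-DMb1, with Cd80, Cd40 and Ciita far below. The ranges of Cd74 and H2-Ab1 overlapped, as did those of H2-DMa and H2-Aa, of H2-Aa and H2-Eb1, of H2-Eb1 and Cd86, and of Cd86 and H2-DMb1. Cd74 stood at 1916, 1060.2 and 780.0 FPKM in the 3 libraries. The beta chain gene H2-Ab1 stood at 1494, 873 and 561 FPKM. These 2 genes were highest in replicate 1 and lowest in replicate 3. The DM alpha chain gene H2-DMa, at 469, 399 and 392 FPKM, and Cd86, at 169.7, 218 and 144 FPKM, varied less. The transactivator gene Ciita, by contrast, was at 1.15, 0.5102 and 2.71 FPKM, which rests on 20 to 99 counted reads per library.

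The data on LPS showed 2 opposite movements among the members. Each library is bulk RNA, in which fewer cells of a type and less RNA per cell cannot be told apart. At 6 hr, the genes of the class II molecule and of DM fell in control microglia, all 6 of them, while Cd40 and Cd86 rose. The counts over the 10 members were 2 higher and 6 lower in control microglia, where 21.4% of the 12684 genes tested were called higher and 21.1% lower. WM repopulating cells had 2 higher and 7 lower, against 19.3% and 19.5% of all genes. The median log2 fold change of the members was -1.09 in control microglia and -1.004 in WM repopulating cells, and that of all genes was near 0 in both.

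**Figure D1:**
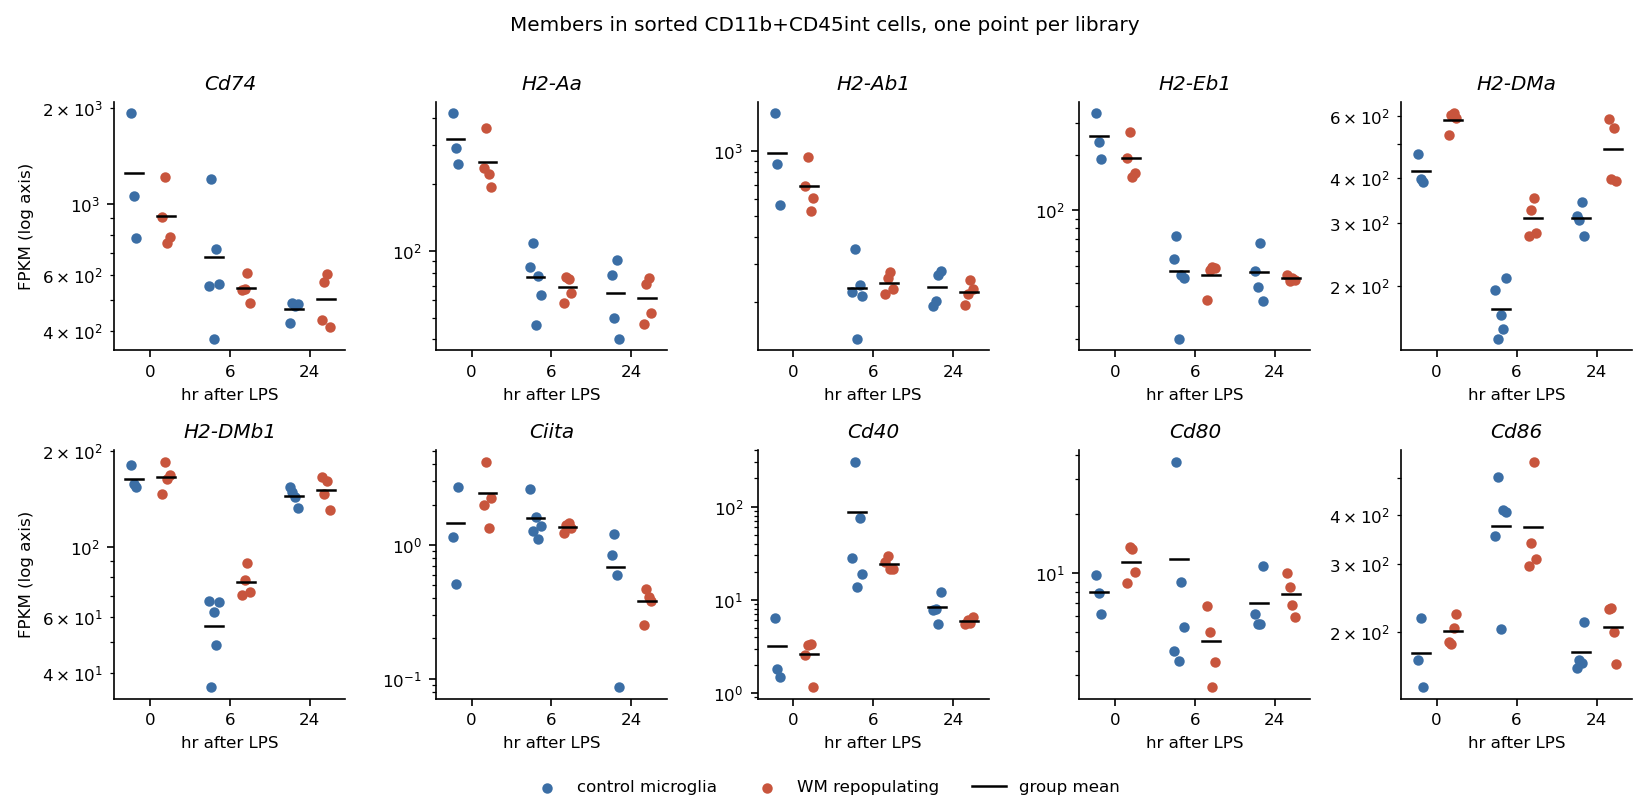
FPKM of each of the 10 genes in every library of sorted CD11b+CD45int cells at 0 hr, 6 hr and 24 hr after LPS, on log axes whose range differs between panels, with blue points for control microglia, red points for WM repopulating cells and black bars at group means. The 3 class II chain genes separate the 0 hr libraries from all later ones in both origins, H2-DMb1 is low at 6 hr and back near its start at 24 hr, and Cd40 and Cd86 are highest at 6 hr.

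H2-Eb1, the gene of the unpaired beta chain, made the widest fall. It stood at 337, 237 and 192 FPKM in control microglia at 0 hr and at 54.1, 72.3, 19.9, 44.5 and 42.9 FPKM at 6 hr. It went from 193, 266, 151 and 161 to 32.5, 47.4, 49.03 and 48.5 FPKM in WM repopulating cells. No 6 hr library of either origin reached the lowest 0 hr library. The fall was -2.497 (SE 0.29, adjusted p = 2.2e-07) in control microglia and -2.08 (SE 0.28, adjusted p = 2.4e-06) in WM repopulating cells, and the 6 hr levels were 18.3% ± 7.44 (SD, n = 5) and 17.4% ± 3.11 (SD, n = 4) of the mean of control microglia at 0 hr.

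The alpha chain gene H2-Aa followed the same course. Control microglia held 418, 293 and 248 FPKM at 0 hr and 84.8, 109, 46.3, 76.9 and 63.6 FPKM at 6 hr. WM repopulating cells held 237, 359, 222 and 196 FPKM and then 58.4, 76.2, 75.1 and 64.8 FPKM. Groups at 0 hr and 6 hr did not overlap in either origin, and limma gave -2.08 (SE 0.27, adjusted p = 1.2e-06) and -1.84 (SE 0.26, adjusted p = 4.8e-06). H2-Ab1, which encodes the partner of the H2-Aa product, fell from the values above to 223, 351, 135, 240.2 and 213 FPKM in control microglia, and from 692, 940.1, 526 and 605 to 218, 259, 277 and 230.0 FPKM in WM repopulating cells. Its changes were -2.02 (SE 0.26, adjusted p = 1.3e-06) and -1.46 (SE 0.25, adjusted p = 6.6e-05), again without overlap.

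Cd74 fell less than the chains it assists. Its 6 hr values were 552, 1194, 377, 720.3 and 562 FPKM in control microglia. There replicate 2, the library with the high Ccr7, lay above 2 of the 3 libraries at 0 hr. The fall was -0.88 (SE 0.27, adjusted p = 0.011), and with only the groups compared in the fit its adjusted p was 0.085. Without control microglia replicate 1 at 0 hr it was -0.52 with an adjusted p of 0.15, and without both libraries that stood apart it was -0.75 with an adjusted p of 0.0098. In WM repopulating cells Cd74 went from 909.6, 1214, 753 and 789 to 538, 542, 609 and 489 FPKM with no overlap, a change of -0.73 (SE 0.26, adjusted p = 0.031). That call was lost when replicate 1 or 2 at 0 hr or replicate 1, 2 or 4 at 6 hr was left out, with adjusted p up to 0.11 without WM repopulating replicate 2 at 0 hr. The ratio of Cd74 to H2-Aa was 3.15 to 4.59 in control microglia at 0 hr and 6.52 to 10.9 at 6 hr, and 3.38 to 4.03 and 7.11 to 9.21 in WM repopulating cells. The ranges of this ratio at 0 hr and 6 hr did not overlap in either origin.

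The DM genes, whose products load peptide, fell at 6 hr and then separated from the chains. H2-DMb1, the beta chain of DM, went from 180.3, 158 and 154 FPKM at 0 hr to 67.1, 35.98, 62.2, 48.8 and 66.6 FPKM at 6 hr in control microglia and stood at 154, 149, 144 and 132 FPKM at 24 hr. WM repopulating cells held 146, 185, 163 and 168 FPKM, then 70.4, 78.4, 88.4 and 71.8 FPKM and then 165, 146, 161 and 130.3 FPKM. In both origins the 6 hr libraries lay below all others and the 24 hr libraries overlapped those at 0 hr. The 6 hr fall was -1.56 (SE 0.16, adjusted p = 3.5e-08) in control microglia and -1.09 (SE 0.15, adjusted p = 4.7e-06) in WM repopulating cells, and the difference between 24 hr and 0 hr was -0.18 (SE 0.17, adjusted p = 0.49) and -0.14 (SE 0.15, adjusted p = 0.59). H2-DMb1 has a close copy, H2-DMb2, listed at 0.0181 to 0.1005 times its level in these cells, and reads shared by the 2 copies are uncertain.

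**Figure D2:**
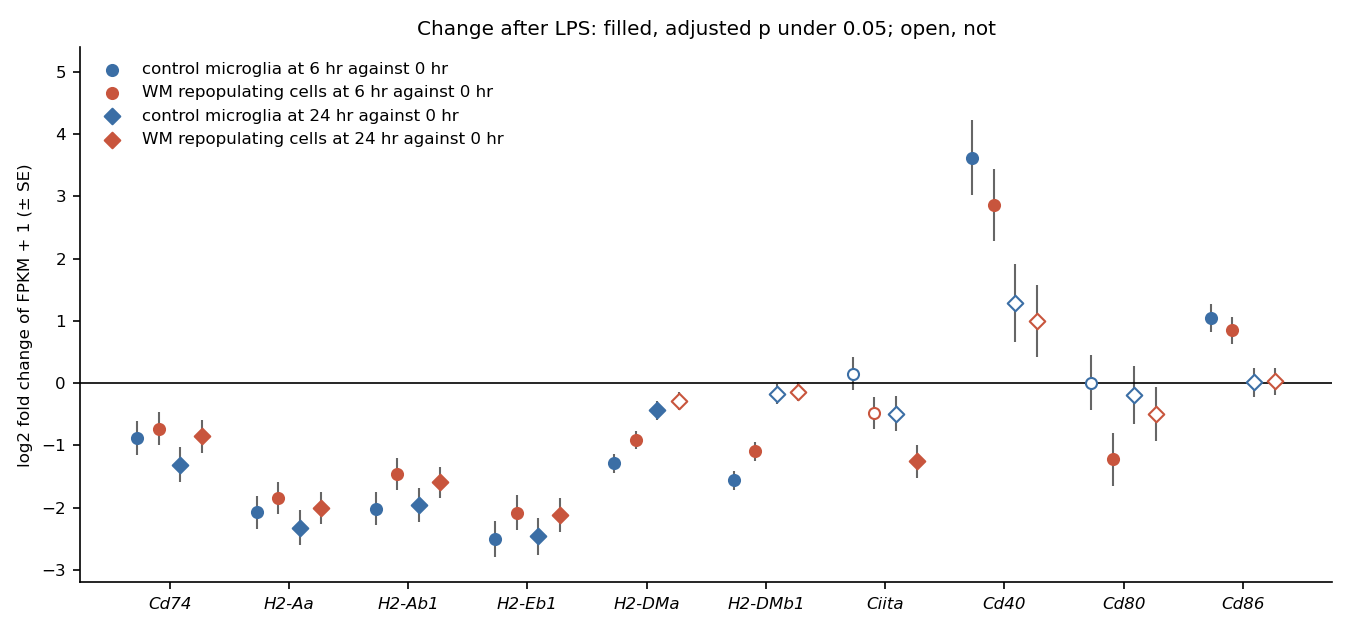
Log2 fold change of FPKM + 1 against 0 hr of the same origin for the 10 genes, with circles for 6 hr, diamonds for 24 hr, blue for control microglia, red for WM repopulating cells, bars of ± 1 SE, and filled symbols where limma's adjusted p was under 0.05. Cd74 and the 3 class II chain genes lie below 0 and filled at both times in both origins, H2-DMb1 is filled at 6 hr and open at 24 hr, and Cd40 reaches 3.62 and 2.86 at 6 hr.

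At 24 hr the class II chains and Cd74 were still low. Control microglia held 0 members called higher and 5 lower, where 12.1% of all genes were called higher and 9.23% lower, and WM repopulating cells held 0 and 5, against 10.5% and 8.29%. H2-Eb1 stood at 46.6, 38.4, 66.6 and 32.3 FPKM in control microglia and 44.4, 41.3, 42.9 and 41.9 FPKM in WM repopulating cells. H2-Aa stood at 78.1, 49.8, 91.8 and 40.1 and 46.95, 71.02, 75.95 and 52.8 FPKM, and H2-Ab1 at 192, 202, 268 and 278 and 193, 217, 255 and 230.4 FPKM. These levels overlapped those of 6 hr for each of the 3 genes in each origin. The changes against 0 hr ran from -2.46 for H2-Eb1 to -1.96 for H2-Ab1 in control microglia and from -2.12 to -1.59 in WM repopulating cells, with adjusted p of at most 8.0e-05.

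Cd74 at 24 hr was 425, 490.0, 479 and 487 FPKM in control microglia and 432, 569.9, 602 and 411 FPKM in WM repopulating cells, below every 0 hr library of its own origin. The changes were -1.31 (SE 0.28, adjusted p = 0.0018) and -0.86 (SE 0.26, adjusted p = 0.024), and without the 2 libraries that stood apart the first was -0.95 (adjusted p = 0.0035). In WM repopulating cells the call was lost without WM repopulating replicate 2 at 0 hr (adjusted p = 0.091), and without replicate 1 (0.066) or replicate 4 (0.073) at 24 hr. H2-DMa, the fifth gene lower in control microglia, changed by -0.44 (SE 0.16, adjusted p = 0.049) and lost that call under 7 of 8 ways of leaving out control libraries, among them -0.35 with an adjusted p of 0.18 without replicate 1 at 0 hr.

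Ciita, the transactivator gene, had no called change at 6 hr. Its values in control microglia were 2.62, 1.27, 1.62, 1.102 and 1.37 FPKM at 6 hr and 0.838, 1.21, 0.599 and 0.0863 FPKM at 24 hr, and the 24 hr library with the lowest value held 3 reads. The differences from 0 hr were 0.15 (SE 0.27, adjusted p = 0.68) and -0.49 (SE 0.28, adjusted p = 0.23). Among WM repopulating cells Ciita stood at 1.98, 4.199, 1.33 and 2.23 FPKM at 0 hr, 1.24, 1.41, 1.45 and 1.33 FPKM at 6 hr and 0.254, 0.4696, 0.411 and 0.3803 FPKM at 24 hr. All 4 libraries at 24 hr lay below all 8 earlier ones, and the fall at 24 hr was -1.26 (SE 0.26, adjusted p = 0.0013). The difference at 6 hr in the same cells was -0.48 (SE 0.26, adjusted p = 0.15). The 24 hr responses of the 2 origins differed by -0.76 (SE 0.38, adjusted p = 0.59), with a 95% interval of -1.55 to 0.03.

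Of the costimulatory genes, Cd40 and Cd86 rose at 6 hr in both origins and Cd80 did not. Cd40, the receptor for the T cell signal, stood at 6.34, 1.79 and 1.48 FPKM in control microglia at 0 hr and 28.3, 303, 13.5, 75.5 and 18.9 FPKM at 6 hr. In WM repopulating cells it stood at 2.58, 3.28, 3.38 and 1.15 FPKM and then 25.2, 29.3, 21.6 and 21.6 FPKM. Every 6 hr library lay above every 0 hr library of both origins, and 1 of them, control microglia replicate 2, lay far above the rest. The rise was 3.62 (SE 0.60, adjusted p = 3.2e-05) in control microglia, 3.43 (adjusted p = 1.2e-06) without the 2 libraries that stood apart, and 2.86 (SE 0.58, adjusted p = 3.6e-04) in WM repopulating cells. Leaving out single libraries moved the rise in control microglia between 2.94 and 4.12. At 24 hr Cd40 was 7.75, 7.98, 5.47 and 12.2 FPKM in control microglia and 5.51, 6.07, 5.68 and 6.61 FPKM in WM repopulating cells. These differed from 0 hr by 1.29 (SE 0.63, adjusted p = 0.15) and 1.003 (SE 0.58, adjusted p = 0.25), and without the 2 libraries both passed, at 1.78 (adjusted p = 0.0038) and 1.003 (adjusted p = 0.037).

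Of the 2 member ligand genes, Cd86 was the more abundant. It stood at 169.7, 218 and 144 FPKM at 0 hr and 353, 502, 204, 412 and 409 FPKM at 6 hr in control microglia, with the 6 hr replicate 3 inside the 0 hr range. WM repopulating cells held 189, 187, 205 and 223 and 297, 339, 549 and 309 FPKM with no overlap. It rose by 1.04 (SE 0.22, adjusted p = 5.7e-04) and 0.85 (SE 0.22, adjusted p = 0.0031). At 24 hr the values were 161, 169, 167 and 212 and 229, 231, 200.1 and 166 FPKM, which overlapped those at 0 hr in both origins. The differences from 0 hr were then 0.01 (SE 0.23, adjusted p = 0.98) and 0.03 (SE 0.22, adjusted p = 0.94).

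Cd80 did not follow Cd86. In WM repopulating cells it stood at 8.85, 13.5, 13.3 and 10.04 FPKM at 0 hr and 6.78, 4.99, 2.596 and 3.504 FPKM at 6 hr, with no overlap, and the fall was -1.22 (SE 0.43, adjusted p = 0.026). The call was lost without replicate 2 or 3 at 0 hr and without replicate 3 or 4 at 6 hr, with adjusted p of up to 0.086. Control microglia held 9.797, 7.85 and 6.14 FPKM at 0 hr and 3.96, 37.01, 3.55, 9.01 and 5.28 FPKM at 6 hr, where replicate 2 was highest as for Cd40. The difference was 0.01 (SE 0.44, adjusted p = 0.99), and -0.37 (adjusted p = 0.39) without the 2 libraries that stood apart. At 24 hr Cd80 was 6.17, 5.48, 5.46 and 10.9 and 9.97, 8.49, 6.87 and 5.94 FPKM in the 2 origins.

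Markers of several cell types moved over the same hours, and their part in the class II values was not tested. Cd209a, a marker of a dendritic cell subset, had the pattern most like Cd74 among genes that are not members (Pearson r = 0.867 over the 24 libraries, which share time and origin). It fell from 15.01 to 39.4 FPKM at 0 hr to 0.581 to 11.5 at 6 hr and 0 to 2.30 at 24 hr in control microglia (log2 fold change -2.48 and -4.19, adjusted p = 2.5e-04 and 3.5e-06). Of the 7 dendritic cell markers tested, 1 other was called at each time in control microglia, both in the higher direction: Ccr7 at 6 hr (3.84, adjusted p = 0.0045) and Xcr1 at 24 hr (0.78, adjusted p = 0.0064). In WM repopulating cells Cd209a alone was called, as lower, at both times. After Cd209a, the genes most like Cd74 were Cyfip1 (r = 0.812), Reep3 (0.800), Cst3 (0.789) and Tnni2 (0.785). Among members the likeness to Cd74 was 0.898 for H2-Ab1, 0.864 for H2-Aa and 0.845 for H2-Eb1, but 0.148 for H2-DMb1 and -0.079 for Cd40. After the group means were taken out, r with Cd74 over the same 24 libraries was 0.808 for Cd40, 0.678 for Cd80, -0.322 for H2-DMb1 and 0.789 for the dendritic cell marker sum. Control microglia replicate 2 at 6 hr was the highest of its group for Cd74, Cd40, Cd80 and that sum, most of which was Ccr7 in this library. The summed 8 dendritic cell markers were 23.7 to 47.3 FPKM in control microglia at 0 hr, 8.48 to 621 at 6 hr and 11.9 to 26.9 at 24 hr, and 31.2 to 60.7, 16.6 to 25.6 and 12.8 to 32.4 in WM repopulating cells. The 6 markers of border-associated macrophages summed to 47.8 to 138 FPKM, 44.6 to 87.7 and 50.4 to 66.9 in control microglia, and to 34.4 to 64.4, 46.7 to 76.7 and 17.6 to 38.4 in WM repopulating cells. Although these sums overlapped between 0 hr and 6 hr, 4 of the 5 tested markers were called lower at 6 hr in control microglia, Pf4 (-2.598), Ms4a7 (-1.95), Mrc1 (-1.33) and Lyve1 (-0.93), and F13a1 was called higher (1.61). Among WM repopulating cells Pf4 (-2.25) and Mrc1 (-0.93) were called lower at 6 hr and F13a1 higher (1.17), and at 24 hr Mrc1 was lower in both origins (-1.23 and -1.47). The 4 monocyte markers summed to 100.5 to 324 FPKM at 0 hr, 1141 to 2266 at 6 hr and 426 to 541 at 24 hr in control microglia, and to 122 to 384, 1146 to 3185 and 126 to 649 in WM repopulating cells. The 8 microglial markers summed to 18616 to 21420.3 FPKM, 6083 to 7861 and 9940.1 to 12386 in control microglia, and to 18158 to 21624, 7101 to 8466 and 9921 to 13054 in WM repopulating cells. The 4 T and NK cell markers summed to 7.93 to 26.03 FPKM, 15.1 to 56.9 and 12.2 to 36.1 in control microglia, where 0 passed by limma (1 with an unadjusted p under 0.05 at each time), and to 25.5 to 65.2, 32.2 to 49.04 and 14.1 to 41.8 in WM repopulating cells. There Cd3d was called lower at 6 hr (-1.45) and Cd3d, Cd3e and Trbc2 at 24 hr (-1.92, -0.72 and -1.63). The 3 listed B cell markers summed to 46.6 to 56.7 FPKM at 0 hr, 4.999 to 13.3 at 6 hr and 26.8 to 35.5 at 24 hr in control microglia, and to 9.66 to 19.5, 2.598 to 9.46 and 6.38 to 9.01 in WM repopulating cells, with Cd79b called lower at 6 hr in both origins (-2.62 and -1.39). The 4 neutrophil markers summed to 1329 to 6118, 733 to 4613 and 5539 to 14452 FPKM in control microglia, and to 1978 to 7469, 349 to 6906 and 2643 to 5308 in WM repopulating cells. Of these 4, Ly6g was called lower at 6 hr in control microglia (-2.599), Ly6g (-3.02), Retnlg (-2.27) and S100a9 (-2.22) at 6 hr in WM repopulating cells, and Ly6g at 24 hr in the latter (-1.56).

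Other genes of class II loading were tested as a list of 12, of which 11 passed the expression limit. In control microglia 3 were higher and 4 lower at 6 hr, where 21.4% of all genes were called higher and 21.1% lower. The thiol reductase gene Ifi30 (0.91) and March1 (0.74), whose product sends class II for degradation, rose. The asparaginyl protease gene Lgmn (-1.03) and H2-Ob (-1.32), a chain of the DO inhibitor of DM, fell. At 6 hr 1 rose and 4 fell in WM repopulating cells (19.3% and 19.5% of all genes), March1 (0.64) against Lgmn (-0.55), H2-Oa (-0.997), H2-Ob (-1.14) and H2-DMb2 (-1.14). At 24 hr 2 rose and 2 fell in control microglia (12.1% and 9.23% of all genes) and 3 rose and 2 fell in WM repopulating cells (10.5% and 8.29%), with Ifi30 higher (1.76 and 1.21) and both DO chains lower in each. Of the 7 promoter factor genes, Nfyb rose in control microglia at 6 hr (0.81), and Rfxank (-0.41) and Rfx5 (-0.57) fell in WM repopulating cells. Neither origin had a called gene of this list at 24 hr. Among genes of interferon-gamma signalling, which drives Ciita, the kinase genes Jak1 (0.88 and 0.67) and Jak2 (1.03 and 0.68) rose at 6 hr in both origins, and the receptor gene Ifngr2 fell in WM repopulating cells (-0.49). Among 5 further costimulatory ligands tested, the CD137 ligand gene Tnfsf9 (3.28 and 2.34) and the PD-1 ligand gene Cd274 (2.499 and 1.96) rose at 6 hr in both origins, and Cd48 fell (-0.94 and -1.11). Icam1 (1.25) and Icosl (0.86) rose in control microglia.

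Whether the 2 origins answered LPS differently was tested as the difference of their responses. By limma 0 of the 10 members passed at 6 hr, where 0.0237% of all genes passed as higher and 0% as lower, and 1 member, H2-DMb1, had an unadjusted p under 0.05 (0.042, difference 0.47, 95% interval 0.02 to 0.93), as had 913 of all 12684 genes. At 24 hr 0 passed, against 0.0158% higher and 0.0710% lower over all genes, and 0 had an unadjusted p under 0.05. After rescaling each library to TPM, which sets all libraries to 1 total, the 24 hr split of all genes was 0 higher and 4 lower instead of 2 and 9. The 95% interval at 6 hr was -2.48 to 0.96 for Cd40 and -2.503 to 0.04 for Cd80, the widest, and -0.06 to 0.80 for H2-DMa. The 6 hr difference of Cd40 was -0.76, -0.57 without the 2 libraries that stood apart and -0.08 without control microglia replicate 2 at 6 hr alone. That of Cd80 was -1.23, then -0.85 and -0.70, and that of H2-DMb1 was 0.25 without both.

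The 2 origins differed in H2-DMa. At 0 hr WM repopulating cells held 530.3, 603, 608 and 590.3 FPKM, all above the 3 control values given above. At 6 hr they held 277, 325, 352 and 281 FPKM against 195, 142, 166, 151 and 210.0 FPKM in control microglia. At 24 hr they held 586, 399, 555 and 394 FPKM against 314, 306, 344 and 276 FPKM. The groups did not overlap at any of the 3 times. The difference was 0.47 (SE 0.16, adjusted p = 0.16) at 0 hr, 0.84 (SE 0.14, adjusted p = 0.0028) at 6 hr and 0.62 (SE 0.15, adjusted p = 0.015) at 24 hr, so that it passed at 6 hr and 24 hr and not at 0 hr. Without the 2 control libraries that stood apart it was 0.56 (adjusted p = 0.13), 0.78 (0.0078) and 0.62 (0.01). With only the groups compared in the fit, neither the 6 hr nor the 24 hr difference passed (adjusted p = 0.063 and 0.093), and after rescaling to TPM the 24 hr one did not (0.051). The 24 hr call was also lost without WM repopulating replicate 1 (0.52, adjusted p = 0.056) or replicate 3 (0.55, 0.06).

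Across the 10 members the counts were 0 higher and 0 lower at 0 hr (1 with an unadjusted p under 0.05 by limma, H2-DMa, as had 1514 of 12684 genes), where 0.717% of all genes were called higher and 0.497% lower. At 6 hr they were 1 and 0, against 0.213% and 0.110%, and at 24 hr 1 and 0, against 1.68% and 2.29%. After rescaling each library to TPM, which sets all libraries to 1 total, the 24 hr split of all genes was 128 higher and 323 lower instead of 213 and 290. The partner gene H2-DMb1 differed by 0.01 (SE 0.17, adjusted p = 0.99) at 0 hr, 0.48 (SE 0.14, adjusted p = 0.19) at 6 hr and 0.05 (SE 0.15, adjusted p = 0.89) at 24 hr. The ratio of H2-DMa to H2-DMb1 was 2.53 to 2.60 in control microglia and 3.26 to 3.73 in WM repopulating cells at 0 hr, 2.67 to 3.94 and 3.92 to 4.15 at 6 hr, and 2.04 to 2.39 and 2.73 to 3.55 at 24 hr. The ranges overlapped at 6 hr by a single control library.

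**Figure D3:**
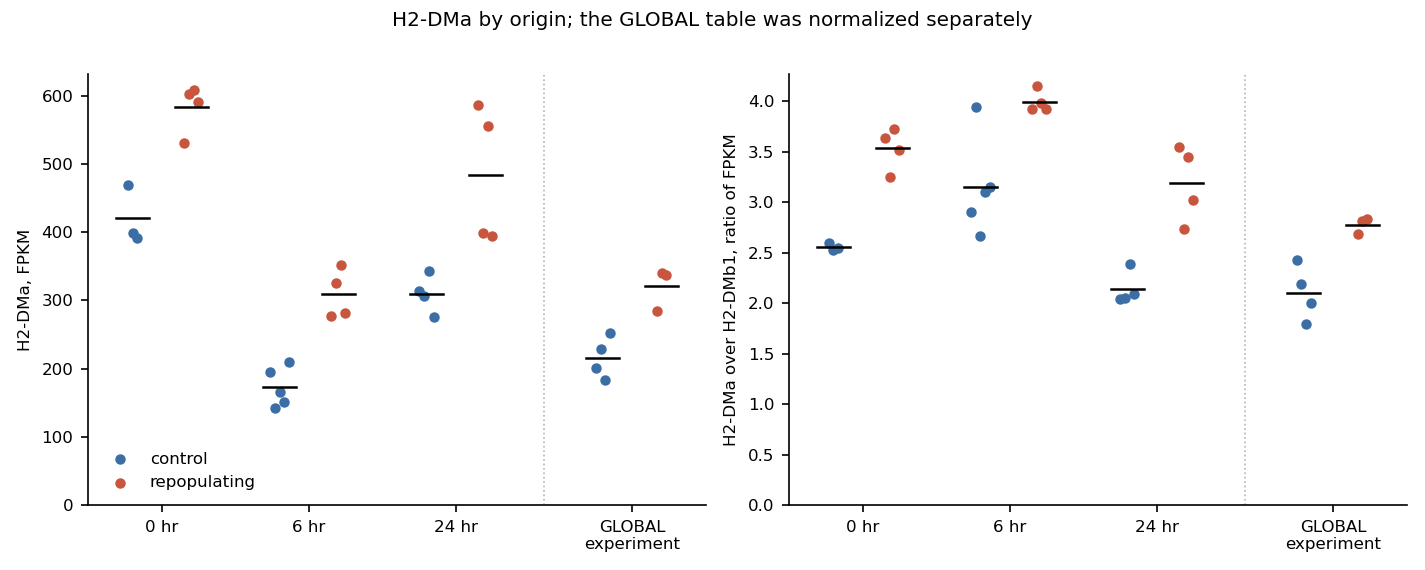
Left, FPKM of H2-DMa, and right, the ratio of FPKM of H2-DMa to H2-DMb1, in every sorted library, with blue points for control cells, red points for repopulating cells and black bars at group means. The dotted line parts the WM experiment at 0 hr, 6 hr and 24 hr after LPS from the GLOBAL experiment, which was normalized separately. Repopulating cells lie above control cells in the left panel at every time and in the GLOBAL experiment.

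Class II levels themselves did not pass between the origins. Cd74, H2-Aa, H2-Ab1 and H2-Eb1 differed at 0 hr by -0.37, -0.34, -0.42 and -0.40, with adjusted p between 0.59 and 0.68. The 95% interval for H2-Ab1 ran from -0.98 to 0.14. Without the 2 control libraries these differences were -0.01, -0.13, -0.05 and -0.18. Cd86 differed by 0.20 (SE 0.23, adjusted p = 0.80) and Cd80 by 0.48 (SE 0.46, adjusted p = 0.75), and Cd80 was higher than the control range in 3 of 4 WM repopulating libraries. Markers of other cells stood beside these values. Cd79b, a B cell receptor gene, was lower in WM repopulating cells at 0 hr (-2.001, adjusted p = 7.1e-04) and 24 hr (-1.99, adjusted p = 1.4e-04), as were Mrc1, a macrophage marker, at 24 hr (-1.19, adjusted p = 0.015) and Xcr1, a dendritic cell marker, at 24 hr (-0.85, adjusted p = 0.0089). Cd3d, a T cell receptor subunit gene, was higher in them at 0 hr (1.74, adjusted p = 0.017). Their part in the member values was not tested.

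In the loading list, WM repopulating cells at 24 hr had 3 of 11 genes higher and 0 lower, where 1.68% of all genes were called higher and 2.29% lower. H2-Oa and H2-Ob encode the 2 chains of DO, and Ctss encodes the protease that trims the invariant chain. H2-Oa ranged from 36.9 to 40.7 FPKM against 8.59 to 22.6 in control microglia (log2 change of 1.18, SE 0.20, adjusted p = 0.0011). H2-Ob ranged from 10.4 to 17.1 against 5.94 to 8.97 FPKM (log2 change of 0.75, SE 0.17, adjusted p = 0.011), and Ctss from 10278 to 13802 against 7418 to 9175 FPKM (log2 change of 0.56, SE 0.14, adjusted p = 0.022). None of the 3 overlapped between origins at 24 hr, and the share of all genes without overlap was not counted. At 0 hr H2-Oa was 61.3 to 75.6 against 37.7 to 40.7 FPKM, a difference of 0.73 (SE 0.21, adjusted p = 0.11). By limma 0 of these 11 genes passed at 0 hr, where 0.717% of all genes were called higher and 0.497% lower. At 6 hr 0 passed, against 0.213% and 0.110%. At these times 4 and 5 of the 11 had an unadjusted p under 0.05, as had 1514 and 1164 of all 12684 genes.

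The span of H2-DMa overlaps that of Brd2 in the GENCODE annotation, and the values of Brd2 are set beside those of H2-DMa. Exons were not compared. Both RefSeq starts of H2-DMa follow chr17:34122831 and chr17:34125517 and lie beyond the GENCODE end of Brd2, chr17:34122634. Brd2 was 46.6 to 57.6 FPKM in control microglia and 59.7 to 80.0 in WM repopulating cells at 0 hr, 43.2 to 73.2 and 58.3 to 76.3 at 6 hr, and 44.4 to 49.9 and 66.3 to 83.2 at 24 hr. Whether reads from Brd2 entered the H2-DMa values was not tested. After LPS, at 6 hr, H2-DMa changed by -1.29 (SE 0.15, adjusted p = 2.7e-07) in control microglia. The change was -0.92 (SE 0.15, adjusted p = 2.2e-05) in WM repopulating cells. The Brd2 ranges at 0 hr and 6 hr overlapped within each origin. Between the origins the Brd2 ranges overlapped at 6 hr and not at 0 hr or 24 hr.

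After GLOBAL repopulation, by limma 0 of the 10 members passed (1 with an unadjusted p under 0.05), and 0% of 16651 genes were called higher and 0% lower, with 1504 genes at an unadjusted p under 0.05. H2-DMa was that member. It stood at 285, 340.3 and 337 FPKM after GLOBAL repopulation and at 201, 228, 184 and 251 FPKM in controls. The 3 repopulated libraries lay above the 4 controls, and the difference was 0.57 (SE 0.15, adjusted p = 0.30). The ratio of H2-DMa to H2-DMb1 was 2.68 to 2.83 against 1.80 to 2.43.

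The other members overlapped between the 2 groups, except Cd86. The share of all genes without overlap was not counted, so nothing is read from the separation of H2-DMa and Cd86. Cd86 stood at 78.6, 84.7 and 95.3 FPKM against 75.3, 76.2, 73.6 and 66.6 FPKM (log2 change of 0.24, SE 0.13, adjusted p = 0.60). Cd74 stood at 719, 915 and 743 FPKM against 617, 875, 832 and 622 FPKM, a difference of 0.12 with a 95% interval of -0.27 to 0.51. For H2-Aa, H2-Ab1 and H2-Eb1 the differences were 0.24, 0.04 and -0.07, and the widest of their intervals, that of H2-Ab1, ran from -0.45 to 0.53. Ciita stood at 3.501, 4.904 and 3.002 FPKM against 2.69, 4.54, 4.605 and 3.04 FPKM, and Cd80 at 6.08, 6.24 and 5.69 against 7.45, 6.93, 4.47 and 5.33 FPKM. Cd40 was at 2.897, 2.19 and 0.362 FPKM against 3.14, 1.52, 2.98 and 2.31 FPKM (log2 change of -0.42, SE 0.35, adjusted p = 0.73), where the lowest library held 4 reads and the difference without it was 0.04. In this experiment H2-DMb2 was listed at 0.499 to 0.660 times the level of H2-DMb1, and reads shared by the 2 copies are uncertain here too. In the loading list 0 of 11 genes passed by limma (3 with an unadjusted p under 0.05), with H2-Oa at 42.9 to 61.2 FPKM after GLOBAL repopulation against 26.1 to 36.6 in controls, and Ctss at 3442 to 4232 against 2557 to 3004.

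In SVZ tissue Cd86 fell with PLX3397 and stayed low at recovery, and the class II genes were low in all groups except H2-DMa. Of the 10, Cd80 was not listed, Ciita and Cd40 were below the expression limit, and 7 were tested. The 8 microglial markers summed to 179.5 to 239 FPKM in controls, 13.3 to 17.4 after 14 days of PLX3397 and 20.4 to 28.9 after 5 days of recovery. These markers fell together with Cd86, and their part in its value was not tested.

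**Figure D4:**
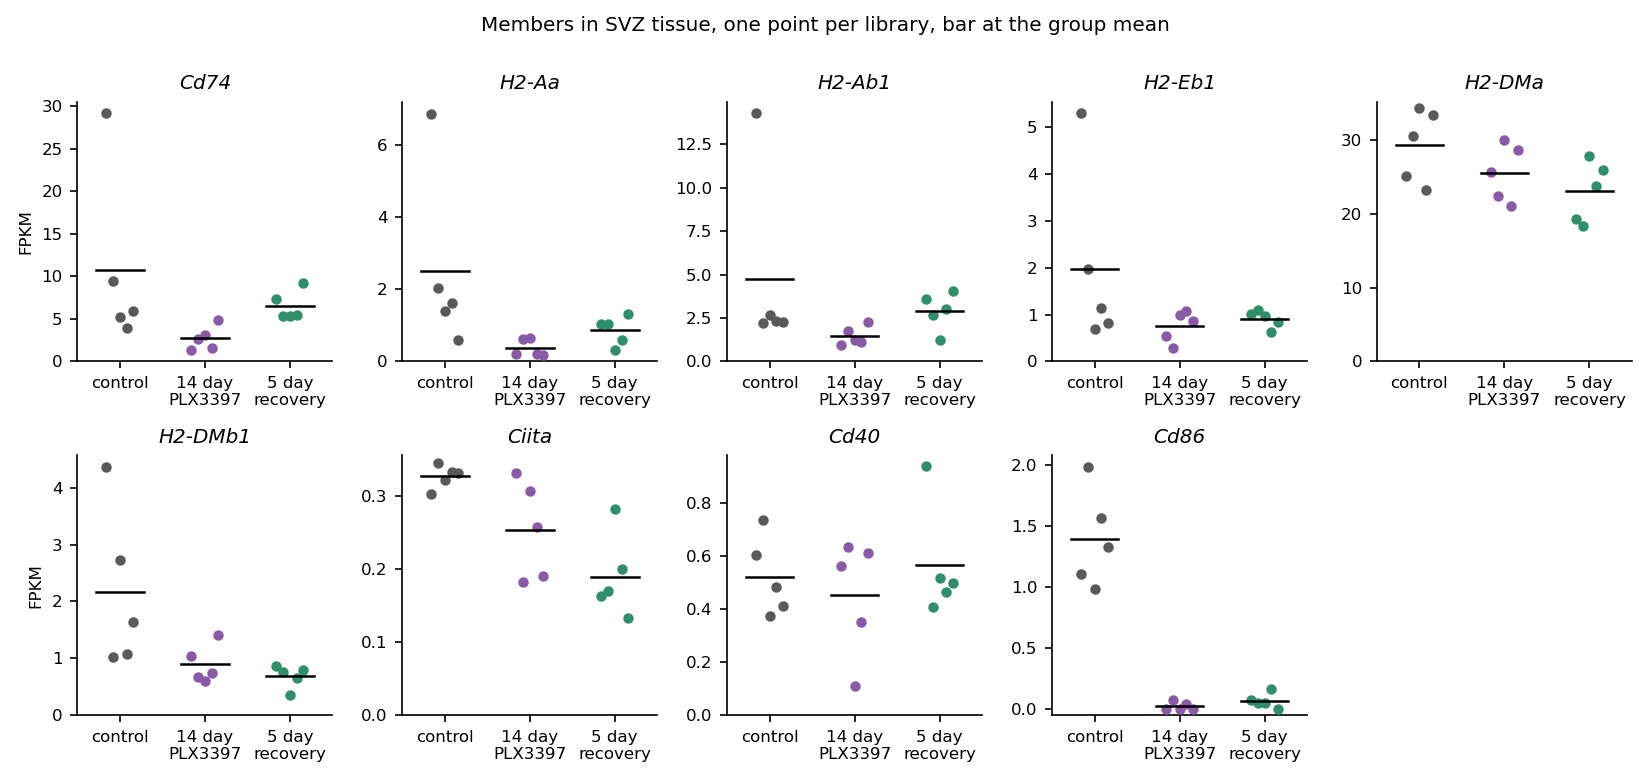
FPKM of the 9 listed genes in every SVZ library, with grey points for control, purple for 14 day PLX3397, green for 5 day recovery and black bars at group means, on linear axes from 0 whose range differs between panels. Cd86 lies at or near 0 in all 10 treated and recovery libraries, 1 control library lies far above the other 4 for Cd74, H2-Aa, H2-Ab1 and H2-Eb1, and H2-DMa stays between 18.3 and 34.4 FPKM throughout.

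Cd86 was the member called lower. Control tissue held 1.105, 1.98, 0.985, 1.56 and 1.32 FPKM, or 15 to 32 reads per library. After 14 days of PLX3397 the values were 0, 0.0743, 0, 0.0412 and 0 FPKM, 3 reads in all 5 libraries, and after 5 days of recovery they were 0.0732, 0.0478, 0.0452, 0.163 and 0 FPKM, 7 reads in all. No treated or recovery library approached the control range. Relative to depth, the treated level was 1.97% of control (95% exact interval 0.401 to 5.90) and the recovery level 5.18% (2.04 to 11.01), intervals that cover counting error only. Cd86 passed the expression limit through its control libraries alone, so the test was run only because it was high there. With no limit on low values its adjusted p was 2.2e-07 after PLX3397 and 5.4e-07 at recovery. Limma gave -1.21 (SE 0.11, adjusted p = 1.1e-06) and -1.15 (SE 0.11, adjusted p = 2.8e-06), and the size rests on the pseudocount, with -3.600 and -3.202 at 0.1. Across the 7 tested members the counts were 0 higher and 1 lower after PLX3397, where 0.0565% of 14151 genes were called higher and 1.21% lower. They were 0 and 1 at recovery against control, beside 0.184% and 1.09%. At an unadjusted p under 0.05, 6 of the 7 were lower after PLX3397 and 4 at recovery, where 866 and 2346 of 14151 genes passed in either direction. The 6 include Cd86 and H2-DMb1, which were tested because they were high in controls, so nothing is read from these counts.

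Cd74 and the class II chains were lower on average but their controls were split by 1 library. That library, control replicate 1, held 6.03 FPKM over the listed markers of border-associated macrophages, against 3.09 to 4.95 in the other controls. Its microglial marker sum, 179.5 FPKM, was the lowest of the controls. The part of either in the split was not tested. Cd74 in control tissue was 29.1, 9.42, 5.19, 3.901 and 5.94 FPKM. After PLX3397 it was 1.34, 2.66, 3.09, 1.55 and 4.87 FPKM, and at recovery 7.35, 5.32, 5.35, 5.41 and 9.22 FPKM. Apart from 1 control and 1 treated library the control and treated values did not overlap, and the treated and recovery values did not overlap at all. The differences were -1.395 (SE 0.38, adjusted p = 0.15) after PLX3397, -0.97 (adjusted p = 0.14) without control replicate 1, and 1.08 (SE 0.38, adjusted p = 0.22) from PLX3397 to recovery. At recovery against PLX3397, 0 members passed by limma (1 with an unadjusted p under 0.05, Cd74, as had 2338 of all genes), where 0.290% of genes were called higher and 0.0353% lower. After rescaling to TPM that split of all genes was 37 and 10 instead of 41 and 5.

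H2-Aa stood at 6.86, 2.05, 1.404, 1.61 and 0.5897 FPKM in controls, 0.208, 0.617, 0.636, 0.196 and 0.1698 FPKM after PLX3397 and 1.04, 1.02, 0.322, 0.5802 and 1.304 FPKM at recovery, on 1 to 68 reads per library. Its difference after PLX3397 was -1.15 (SE 0.31, adjusted p = 0.12), and -2.200 (adjusted p = 0.048) with a pseudocount of 0.1. Without control replicate 5 it was -1.38 (adjusted p = 0.021). H2-Ab1 was 14.3, 2.199, 2.66, 2.31 and 2.29 FPKM in controls and 0.933 to 2.28 FPKM after PLX3397, and H2-Eb1 was 5.301, 1.96, 0.6996, 1.14 and 0.818 and 0.282 to 1.07 FPKM. Their differences were -0.91 (SE 0.36, adjusted p = 0.60) and -0.61 (SE 0.27, adjusted p = 0.76), and -0.48 and -0.29 without control replicate 1. In this tissue Cd74 was most like H2-Ab1 among the members (r = 0.899 over 15 libraries) and, outside them, like Smpdl3a (0.884), Hist1h2bc (0.873), Tcn2 (0.853), Car12 (0.849) and Alg14 (0.847).

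H2-DMa stood apart from the other members in SVZ tissue. It was 25.1, 30.5, 34.4, 23.2 and 33.4 FPKM in controls, 25.6, 22.4, 29.98, 21.03 and 28.6 FPKM after PLX3397 and 19.3, 18.3, 27.8, 23.7 and 25.96 FPKM at recovery, and the 3 groups overlapped. The differences were -0.19 (SE 0.14, adjusted p = 0.997) and -0.34 (SE 0.14, adjusted p = 0.25). Its partner H2-DMb1 was 4.37, 1.02, 2.73, 1.07 and 1.64 FPKM in controls, 0.605 to 1.41 FPKM after PLX3397 and 0.357 to 0.868 FPKM at recovery, the last below every control library, with differences of -0.66 (SE 0.22, adjusted p = 0.40) and -0.82 (SE 0.22, adjusted p = 0.10). It reached 1 FPKM in all 5 control libraries, in 2 treated and in 0 recovery libraries, so that it too was tested because it was high in controls. The ratio of the 2 genes was 5.75 to 29.9 in control tissue, against 2.53 to 2.60 in control microglia at 0 hr. Brd2, whose GENCODE span overlaps that of H2-DMa, stood at 17.2 to 19.3 FPKM in controls, 20.6 to 21.4 after PLX3397 and 8.04 to 21.2 at recovery. Whether its reads entered the H2-DMa values was not tested.

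Ciita and Cd40 in SVZ tissue were compared by an exact permutation test over libraries, 6 tests in all, whose smallest p is 0.0079. Ciita stood at 0.303, 0.346, 0.322, 0.333 and 0.332 FPKM in controls, 0.332, 0.182, 0.307, 0.257 and 0.191 FPKM after PLX3397 and 0.163, 0.171, 0.282, 0.1997 and 0.134 FPKM at recovery, on 5 to 18 reads per library. All 5 recovery libraries lay below the 5 controls, and the two-sided exact p was 0.0079 for that comparison (difference -0.16 on the log2 scale) and 0.063 for PLX3397 against control (-0.08). In summed reads the recovery level was 59.6% of control (95% exact interval 39.7 to 88.8, for counting error only). Limma with no filter on low values gave an adjusted p of 0.22 for Ciita at recovery against control. Cd40 stood at 0.374 to 0.735, 0.109 to 0.634 and 0.408 to 0.937 FPKM in the 3 groups, with exact permutation p of 0.60 for PLX3397 against control, 0.72 for recovery against control and 0.47 for recovery against PLX3397. Dexi overlaps Ciita in the annotation, and its part was not tested.

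Of 9 tested genes of the loading list, 1 fell after PLX3397 and 1 at recovery against control. Over all genes 1.21% and 1.09% were called lower. In both cases the list gene was Ctss, which is highly expressed by microglia. It was 59.7 to 87.8 FPKM in controls, 0.143 to 0.4927 after PLX3397 and 2.54 to 6.18 at recovery (log2 fold change -5.79 with adjusted p = 3.0e-13, and -4.02 with adjusted p = 5.0e-11), and its rise from PLX3397 to recovery passed (log2 change of 1.77, SE 0.17, adjusted p = 2.2e-05). Among interferon-gamma signalling genes, the receptor gene Ifngr1 was lower, at 13.04 to 15.1 and 13.4 to 15.3 FPKM against 18.5 to 20.8 (-0.44 and -0.38). None of the 7 promoter factor genes and none of the 4 further ligands tested passed in the 3 SVZ comparisons by limma, with 1 ligand at an unadjusted p under 0.05 in each comparison against control and 1 promoter factor gene in recovery against PLX3397. B cell and monocyte markers were not listed for this tissue, and 2 of 8 dendritic cell markers were, with sums of 5.46 to 8.16 FPKM in controls, 5.13 to 8.40 after PLX3397 and 5.199 to 8.40 at recovery. The 4 listed markers of border-associated macrophages summed to 3.09 to 6.03, 1.10 to 2.14 and 1.38 to 2.08 FPKM. The 2 listed neutrophil markers summed to 0.558 to 3.17, 0 to 4.22 and 1.71 to 15.01 FPKM, and both had an unadjusted p under 0.05 for recovery against PLX3397 and against control, with 0 passing by limma. Their part in the class II values was not tested.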

How the data were processed

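RNA of SVZ tissue and of sorted CD11b+CD45int cells was sequenced, and per the study's methods reads were aligned with STAR and counted with featureCounts, with mm10 as the genome in the labels. The authors deposited FPKM values in 3 tables, normalized separately. The labels and the methods describe different library protocols, and which applies to which table is not settled here. Columns were matched to samples by name, and 25 SVZ symbols that a spreadsheet had turned into dates were restored.

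Values were tested as log2(FPKM + 1) with limma 3.58.1 in R 4.3.3 (lmFit and eBayes with a trend, two-sided), all groups of a table in 1 fit, over genes with at least 1 FPKM in at least 3 libraries (14151 SVZ, 12684 WM and 16651 GLOBAL genes). P-values were Benjamini-Hochberg adjusted over all tested genes, at 0.05. Ciita and Cd40 in SVZ were tested by an exact permutation test (scipy 1.17.1). Relative depth was recovered from low genes, of which 94.9% to 99.8% held only whole reads (within 0.001 times the square root of the read number). Its absolute scale came from annotated gene lengths. On simulated data with 100 genes changed at each size, the test recovered 93, 70 and 53 genes at a log2 fold change of 1 for PLX3397 against control in SVZ, WM against control at 0 hr, and GLOBAL. The simulated noise was normal, and the changed genes were drawn only from those above a set mean level. These figures therefore do not cover members with low values, such as Cd86 in SVZ tissue.

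The members and gene lists were chosen with earlier results of these data known. All members were named, and of each other list at most 4 called genes a comparison. Some list results are not reported here. Alternatives covered the pseudocount, the filter, TPM rescaling, the variance trend, the fit's samples, the replicate block, a fold limit and leaving out each library.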

Additional observations from a re-analysis of the deposited data

Results flagged for a closer look

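Of 87 groups of a member with 4 to 10 libraries, 12 had a library whose gap to its nearest neighbour, as a share of the group's range, was above Dixon's 95% critical value for its size. Chance gives about 1 such group in 20. In SVZ control tissue replicate 1 was high for Cd74 (gap over range 0.781), H2-Aa (0.768), H2-Ab1 (0.962) and H2-Eb1 (0.725). At SVZ recovery replicate 1 was high for Cd40 (0.799), at 0.937 FPKM against 0.515 in the next library. In control microglia at 6 hr replicate 2 was high for Cd40 (0.786) and Cd80 (0.837), at 303 and 37.0 FPKM against 75.5 and 9.01 in the next.

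In control microglia at 24 hr replicate 1 was low for Cd74 (0.836), at 425 FPKM against 479. Replicate 4 of that group was high for Cd80 (0.870), at 10.9 against 6.17 FPKM, and for Cd86 (0.842), at 212 against 169 FPKM. In WM repopulating cells at 6 hr replicate 1 was low for H2-Eb1 (0.904), at 32.5 against 47.4 FPKM, and replicate 3 was high for Cd86 (0.831), at 549 against 339 FPKM. What sets these libraries apart was not tested.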

How the results depend on the processing

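No called member changed direction under any alternative. Values called in neither fit changed sign in 24 of 1022 values under other settings and in 70 of 1200 when 1 library was left out, among them Cd74 and H2-Ab1 at SVZ recovery against control without control replicate 1 (0.11 and 0.17, against -0.32 and -0.27). The number of members called for PLX3397 against control in SVZ was 1, and 2 with a pseudocount of 0.1 (H2-Aa added), 0 where 1 FPKM was required in 0.5 of the libraries, which leaves Cd86 untested, and 1 to 2 when single libraries were left out. For SVZ recovery against control it was 0 under that stricter filter. The Cd86 change itself moved with the scale, to -3.600 and -3.202 with a pseudocount of 0.1. Between the 2 origins at 6 hr it was 0 with an absolute log2 fold change over 1 required and 0 with only the groups compared in the fit (H2-DMa adjusted p = 0.063). At 24 hr it was 0 under TPM (0.051), 0 under the fold limit, 0 with only the groups compared (0.093), and 0 to 1 when single libraries were left out. Leaving out single libraries gave 7 to 8 members for control microglia at 6 hr, 4 to 5 at 24 hr, and 7 to 9 and 4 to 5 for WM repopulating cells. Replicate numbers were not taken to pair the samples, since not every same-numbered pair correlated above 0.1 (5 of 15 in SVZ, 7 of 55 in the WM experiment and 2 of 3 in GLOBAL), and a replicate block changed 1 count, that of control microglia at 24 hr, from 5 to 4 (H2-DMa -0.39, adjusted p = 0.063). With only the groups compared, Cd74 at 6 hr in control microglia had an adjusted p of 0.085. Where not stated, the cause was not tested. Depth limits Ciita and Cd40 in SVZ, at 2 to 18 reads per library.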
